A study of Mus musculus with 36 samples.

Results

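The genes described here belong to the system that cuts heart matrix and holds that cutting in check: the 4 tissue inhibitors of metalloproteinases (Timp1, Timp2, Timp3 and Timp4), the matrix metalloproteinases Mmp2, Mmp3 and Mmp14, and the secreted proteases Adamts2, Adamts5 and Adamts9. They were taken by gene symbol, with every probe set that carries one of these symbols, which gave 10 of 20701 annotated genes and 29 of 45101 probe sets. Poly(A)-RNA of heart tissue from OF1 mice, an outbred strain with no stated genetic change or treatment, was measured on 1-colour arrays at 12 stages. Of these, 10 were embryonic, at daily spacing between E10.5 and E19.5. The adult stages were young adult (10 weeks) and old adult, whose age is 10 months in the study's methods and 14 months in the series text. The 36 arrays fall into 3 for each stage, described in the methods as biological replicates. The arrays of the first 2 stages are each of mixed sex, while every later stage has a female, a male and a mixed array. Array titles change form within E16.5, from the female array on, and whether this marks a batch is not stated.

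MMPs are secreted or membrane-bound zinc enzymes that cleave collagens, gelatins and other matrix proteins, and they are made as inactive proforms. ADAMTS proteases are secreted enzymes that act on procollagens and on large proteoglycans such as versican, which fills the early cardiac jelly and the forming valves. TIMPs bind the active site of MMPs and block them, and Timp3 also inhibits ADAM and ADAMTS enzymes. The ratio of TIMPs to MMPs is commonly used to describe matrix turnover in the heart. The arrays measure RNA, not protein, enzyme activity or inhibition.

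Each gene was read from its probe set with the highest mean over the 36 arrays, called its main probe set here. Other probe sets were given beside it for some of the comparisons. Values are log2 intensities after robust multi-array averaging (RMA), so a difference of 1 is a 2-fold difference, and they were compared between stages, not between genes. A difference was called by the study's limits when the adjusted p from limma was under 1e-05, the log2 fold change above 2 in size (4-fold) and the mean above 5 in at least 1 stage. An adjusted p under 0.05 served as a second, looser rule. Of the 29 probe sets, 24 reached a stage mean above 5, as did 9 of the 10 main probe sets, Mmp3 being the exception with a highest stage mean of 4.20. An F test over the 12 stages called 19 of the 29 probe sets and the main probe sets of 8 genes at an adjusted p under 1e-05, where 27.7% of all probe sets were called. The main probe sets of Mmp3 and Adamts9 were not called (adjusted p = 0.00039 and 0.00012 by the limma F test).

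The sample labels name liver tissue in the extraction protocol, while the title, the tissue label and the methods name heart. In the data, the 6 measured cardiomyocyte markers averaged between 11.5 and 12.2 at every stage, and the 4 liver markers between 3.35 and 3.93 with none above 5, as was also so of the skeletal muscle and lung markers. Other cell types changed with stage. The 6 macrophage and leukocyte markers averaged 3.84 on the E10.5 arrays (3.72 to 3.97), 4.99 on those of E19.5 (4.96 to 5.03) and 7.10 on the young adult ones (at most 7.23), with 1, 3 and 4 of them above 5. The 8 fibroblast markers averaged 6.21, 8.19 and 8.75 at these stages, with 5, 8 and 8 above 5. The 3 adipocyte markers lay between 2.33 and 2.95 on all embryonic arrays and between 3.60 and 6.16 on the adult arrays. In the opposite direction, the mean of the 5 erythroid markers dropped from 9.54 (E10.5) to 3.85 (E19.5), with 3.88 for young adults. Epicardium and mesothelium markers, 4 in all, likewise had lower means later: 5.91 (E10.5), 5.25 (E19.5) and 4.45 (young adult). The level of the spiked hybridization controls also differed, at 9.68 to 10.3 on the E10.5 arrays and 12.0 to 12.4 on the young adult arrays. The part of cell composition and of these controls in the differences below was not tested, except where a fit with the control level is given, and in whole hearts fewer cells of a type cannot be told apart from less RNA per cell.

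Upstream sequence is shown first for 5 members with different courses: Timp3 and Timp4, which were higher in adults than in embryos, Mmp14, whose main probe set went the other way, Adamts2, which was lowest at E10.5, and Mmp3, which was at the low end of the scale in embryos. RefSeq promoter entries (build GRCm38.p6) were found for 8 of the 10 genes, and the 250 bases before the annotated start are printed 5′ to 3′ on the gene's strand. Capitals mark matches, on either strand, to 3 letter patterns. The AP-1 site was searched as TGANTCA, which 6.75% of the 32841 upstream windows of the same length hold. The TATA box was searched as TATAAA, held by 12.4% of them. The GC box was searched as GGGCGG, held by 32.7%. Overlapping matches are joined.
Timp3 (chr10:86300162-86300411, plus strand): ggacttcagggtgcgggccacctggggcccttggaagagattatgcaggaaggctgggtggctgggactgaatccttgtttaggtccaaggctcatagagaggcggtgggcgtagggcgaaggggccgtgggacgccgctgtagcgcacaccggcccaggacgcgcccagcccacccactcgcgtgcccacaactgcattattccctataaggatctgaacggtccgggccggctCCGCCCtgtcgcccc
Timp4 (chr6:115252206-115252455, minus strand): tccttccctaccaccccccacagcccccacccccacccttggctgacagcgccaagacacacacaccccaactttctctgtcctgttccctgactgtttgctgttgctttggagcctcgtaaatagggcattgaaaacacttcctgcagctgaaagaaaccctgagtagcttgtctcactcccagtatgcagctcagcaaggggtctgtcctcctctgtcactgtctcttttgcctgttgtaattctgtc
Mmp3 (chr9:7445572-7445821, plus strand): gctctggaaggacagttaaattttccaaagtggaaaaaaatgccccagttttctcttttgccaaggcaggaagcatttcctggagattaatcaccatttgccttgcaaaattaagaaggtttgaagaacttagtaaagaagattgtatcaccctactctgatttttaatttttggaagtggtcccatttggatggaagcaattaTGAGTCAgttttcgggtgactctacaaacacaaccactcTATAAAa
Mmp14 (chr14:54431348-54431597, plus strand): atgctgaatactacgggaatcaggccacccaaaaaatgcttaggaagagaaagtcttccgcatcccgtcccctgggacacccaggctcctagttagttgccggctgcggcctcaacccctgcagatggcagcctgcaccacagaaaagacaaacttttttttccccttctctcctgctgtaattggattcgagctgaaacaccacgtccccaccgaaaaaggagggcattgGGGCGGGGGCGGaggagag
Adamts2 (chr11:50601835-50602084, plus strand): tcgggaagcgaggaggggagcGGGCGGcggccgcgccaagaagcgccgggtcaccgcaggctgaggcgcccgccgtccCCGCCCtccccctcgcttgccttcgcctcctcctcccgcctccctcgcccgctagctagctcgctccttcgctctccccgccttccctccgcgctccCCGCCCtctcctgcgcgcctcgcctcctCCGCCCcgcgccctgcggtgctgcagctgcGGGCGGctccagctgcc

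The Timp3 window held 1 GC box and 18 CpG pairs in a sequence of 65.6% G and C. The Timp4 window held none of the 3 patterns and 2 CpG pairs at 53.6% G and C, against a median of 52.4% over all windows. Mmp3 had an AP-1 match beginning 46 bases before the start and a TATA match beginning 7 bases before it, at 37.6% G and C. Mmp14 had 2 adjacent GC box matches. Adamts2 had 5 GC boxes and 34 CpG pairs at 78% G and C. Of the other matched members, Timp1, Timp2 and Adamts9 had 1 GC box each, at 54.4%, 68% and 71.2% G and C, and none had an AP-1 or TATA match. A match describes letters and is not evidence of binding.

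Timp4, the TIMP best known for its expression in heart, changed most of all members. Its main probe set read 2.09, 2.25 and 2.12 on the E10.5 arrays, 6.94, 6.51 and 6.02 at E19.5, 9.86, 10.60 and 9.64 in young adults and 9.37, 9.48 and 9.57 in old adults. The groups did not overlap, and all 30 embryonic arrays lay below all 6 adult arrays. The log2 difference between E10.5 and young adult was -7.88 (SE 0.29, n = 3 per stage, limma adjusted p = 4.9e-20), which is not given as a fold because the E10.5 values lie at the low end of the scale, where RMA compresses differences. At E19.5 it was still 11.7-fold lower (-3.54, adjusted p = 5.2e-11). Up to E15.5 its stage mean stayed between 2.14 and 2.45. It then climbed through 2.98 (E16.5), 4.85 (E17.5) and 5.65 (E18.5) to 6.49 (E19.5).

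Of the 9 daily steps, the step from E16.5 to E17.5 was the one at which Timp4 passed the looser rule, with a rise of 1.87 on the log2 scale (SE 0.29, limma adjusted p = 0.0043). The female, male and mixed arrays read 2.88, 2.88 and 3.18 at E16.5 and 5.51, 4.77 and 4.26 at E17.5, without overlap. The step did not pass without the male or the female E16.5 array (1.82 in both, adjusted p = 0.062 and 0.059), nor in a fit of the E16.5 to E19.5 arrays alone (adjusted p = 0.56). At that step 4 of all probe sets rose under the looser rule and 2 fell, 0.0133% of those tested. Between E17.5 and E19.5, where all arrays carry the same form of title, Timp4 rose by a further 1.64 (adjusted p = 0.0011), 1 of 7 member probe sets lower at E17.5 under the looser rule, against 1.74% of all. Arrays of the same sex label deviated together at these stages, and with that label as a block on the E17.5 to E19.5 arrays 12 member probe sets passed, Timp4 among them (adjusted p = 0.0012). With 1 of the 6 arrays left out 2 to 9 passed, Timp4 each time (highest adjusted p = 0.014), and on the E17.5 to E19.5 arrays with no block 0 passed. The second Timp4 probe set, 1450974_at, was also lower at E10.5 than in young adults (-3.15 on the log2 scale, adjusted p = 5.1e-12) and at E19.5 (-2.42, adjusted p = 6.7e-09), but its rise within the embryo was small, from 2.93 to 3.65. With the hybridization control level as a covariate its E10.5 difference was -2.69 (adjusted p = 7.7e-05) and no longer called.

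Timp3, the TIMP that is held in the matrix and also inhibits ADAM and ADAMTS enzymes, was higher in adults on all 4 probe sets. The main probe set read 7.57, 8.25 and 7.62 at E10.5, 9.18, 9.08 and 7.77 at E19.5, 11.13, 10.83 and 10.75 in young adults and 10.83, 11.34 and 11.62 in old adults. No embryonic array reached the lowest adult array, whereas E10.5 and E19.5 overlapped. At E10.5 it was 8.51-fold lower than in young adults (-3.09, SE 0.35, adjusted p = 9e-09), with -2.83, -2.22 and -1.89 on the other probe sets (highest adjusted p = 1.6e-08). At E19.5 the difference was -2.22 (adjusted p = 9.8e-06) and on 1419089_at -2.39 (adjusted p = 3.2e-09). The first of these stood at the limit: without any 1 of the 6 arrays its adjusted p was between 1.3e-05 and 0.00033, so that it was no longer called, with differences from -2.48 to -1.77. The remaining probe sets were not called at E19.5, with -1.79 on 1449334_at (adjusted p = 1.6e-07) and -0.74 on 1419088_at (adjusted p = 0.0055). The latter did not pass the looser rule with the hybridization control level as a covariate (-0.27, adjusted p = 0.37). Nor did it without the male young adult array (-0.56, adjusted p = 0.057).

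Timp2, which both inhibits MMPs and takes part in the activation of pro-MMP2 at the cell surface, moved the same way with smaller differences. The main probe set read 7.14, 7.30 and 6.82 at E10.5, 8.06, 8.03 and 7.46 at E19.5, and 8.97, 8.70 and 8.43 in young adults. The 3 stages did not overlap. It was 3.05-fold lower at E10.5 than in young adults (-1.61, SE 0.25, adjusted p = 2.7e-06) and 1.80-fold lower at E19.5 (adjusted p = 0.011). The E19.5 difference did not pass the looser rule without the mixed E19.5 array (-0.65, adjusted p = 0.08) or without the female young adult array (-0.71, adjusted p = 0.059). Of the other 5 probe sets, 3 that reached the mean limit were lower too, with -1.95, -2.23 and -1.55 at E10.5 (adjusted p = 2.3e-07, 2.7e-08 and 1.3e-08), the second of which was called. Without the female young adult array that one was -1.93 and under the fold limit. At E19.5 the same 3 differed from young adults by -1.43, -1.72 and -0.98 (adjusted p = 9.3e-05, 7.6e-06 and 8.9e-05). None was called there, and each passed the looser rule without any 1 of the 6 arrays (highest adjusted p = 0.0022). The remaining pair stayed under a stage mean of 5.

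Timp1, a TIMP commonly measured as a marker of matrix remodelling, did not differ detectably between E10.5 and young adults. It read 5.75, 5.79 and 5.21 at E10.5, 5.31, 5.42 and 4.71 at E19.5, 5.66, 5.37 and 5.66 in young adults and 5.86, 7.40 and 5.74 in old adults. The log2 difference between E10.5 and young adult was 0.02 with a 95% interval from -0.51 to 0.56 (adjusted p = 0.95), an interval that holds changes of over 1.4-fold either way. Its course was nonetheless uneven (F test adjusted p = 6.6e-08), with a stage mean of 5.90 at E12.5 and 4.13 at E17.5. The male old adult array was the highest of all 36.

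**Figure D1:**
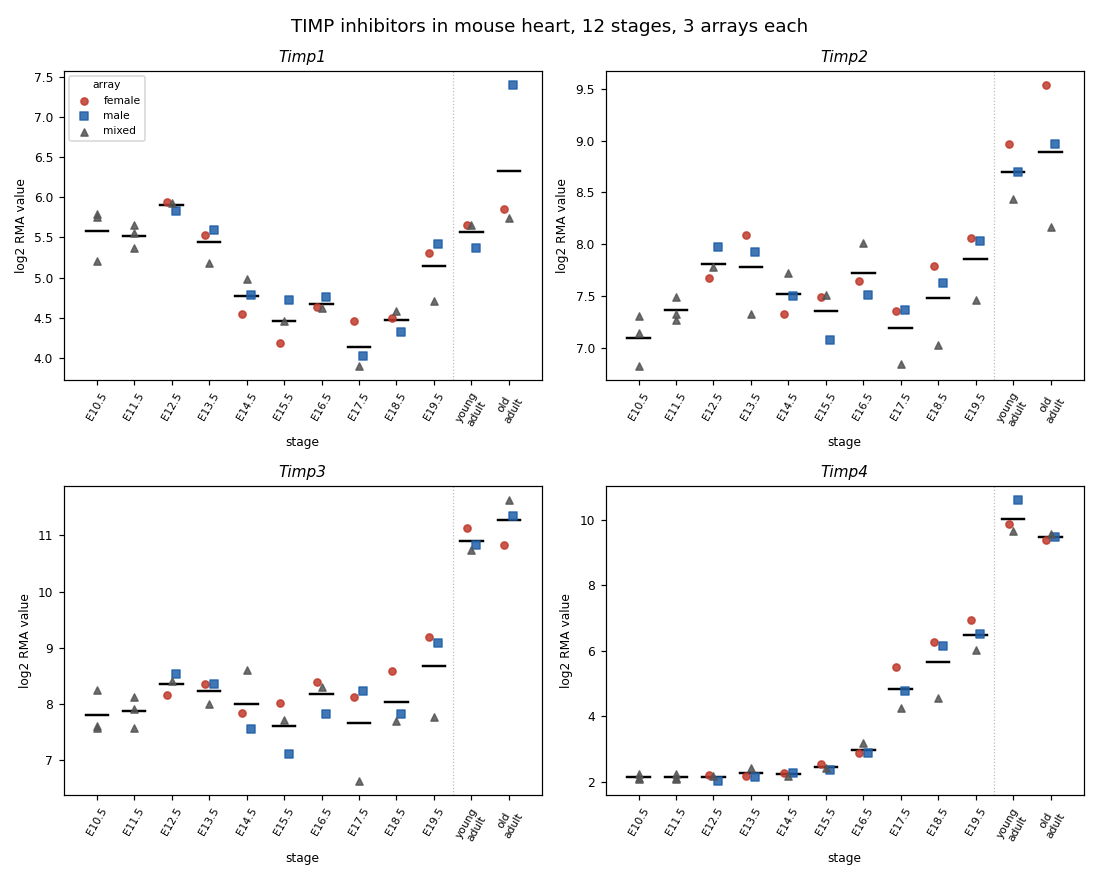
Log2 RMA value of the main probe set of Timp1, Timp2, Timp3 and Timp4 (y axis, each panel with its own range that does not start at 0) at 12 stages (x axis). Points are single arrays by sex label, bars are means of 3 arrays, and the dotted line divides embryonic from adult stages. Timp4 leaves its floor of about 2.1 to 2.5 after E15.5, and Timp3 steps up between E19.5 and the adult stages.

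Mmp14, the membrane-type MMP that activates pro-MMP2, was higher in embryos than in adults on its main probe set, the opposite direction to Timp2, Timp3 and Timp4. The main probe set read 7.86, 7.88 and 7.58 at E10.5, 7.68, 7.49 and 7.04 at E19.5, 6.65, 5.27 and 5.73 in young adults and 6.18, 6.43 and 6.13 in old adults. Every embryonic array lay above every adult array. At E10.5 it was 3.71-fold higher than in young adults (1.89, SE 0.22, adjusted p = 1.5e-08), just under the fold limit, and at E19.5 2.88-fold higher (1.52, adjusted p = 2.5e-06). At E12.5, its highest stage, it was 5.37-fold higher (2.43, adjusted p = 1.1e-10) and called, as were 3.36% of all probe sets in that direction.

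The 3 Mmp14 probe sets disagreed. Over the 12 stage means, 1440920_at correlated with the main one at r = 0.84 and 1416572_at at r = -0.73, a description over means that share the same arrays. At E10.5, 1440920_at was 0.42 higher than in young adults (adjusted p = 0.037) while 1416572_at differed by -0.76 (adjusted p = 0.00064), the direction of those TIMPs. With the hybridization control level as a covariate none of the 3 passed at E10.5 (0.79, 0.35 and -0.32, adjusted p = 0.13, 0.53 and 0.58), and the main one at E19.5 was 1.04 (adjusted p = 9e-04). Without the female young adult array, the highest of the 3, the E10.5 difference was 2.28 (adjusted p = 5.2e-11) and was called.

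Mmp2, gelatinase A, a protease made largely by fibroblasts and other mesenchymal cells, was high at E12.5, low from E15.5 to E18.5, with stage means of 6.15 to 6.46, and highest in adults. The main probe set read 7.01, 7.27 and 6.61 at E10.5, 7.97, 8.16 and 8.13 at E12.5, 6.21, 6.18 and 6.05 at E17.5, 7.53, 7.69 and 6.26 at E19.5, and 8.72, 7.98 and 7.93 in young adults. All E12.5 arrays lay above all E17.5 arrays, while E10.5 and E19.5 overlapped. Mmp2 was 1.90-fold higher at E12.5 than at E19.5 (0.93, SE 0.30, adjusted p = 0.022, where 28.9% of all probe sets passed the looser rule), and 2.37-fold lower at E10.5 than in young adults (-1.25, adjusted p = 0.00082). At E19.5 it was 2.07-fold lower than in young adults (-1.05, adjusted p = 0.0087), a difference that did not pass the looser rule without the mixed E19.5 array (-0.60, adjusted p = 0.13) or without the female young adult array (-0.79, adjusted p = 0.073). The second probe set, 1416136_at, followed the main one (r = 0.99 over 12 stage means). It differed from young adults by -1.36 at E10.5 (adjusted p = 0.00049) and by -1.45 at E19.5 (adjusted p = 6e-04). On this probe set the E19.5 difference passed the looser rule without any 1 of the 6 arrays (highest adjusted p = 0.014).

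Mmp3, stromelysin 1, was near the low end of the scale in all embryos. Its single probe set lay between 2.35 and 3.38 on the 30 embryonic arrays. In young adults it read 5.51 on the female, 2.94 on the male and 4.15 on the mixed array, and in old adults 4.56, 3.77 and 3.19. The adult arrays therefore spread more than the embryonic ones and overlapped with them. The difference between E10.5 and young adult was -1.65 (SE 0.34, adjusted p = 0.00012), and at E19.5 -1.32 (adjusted p = 0.0031). Without the female young adult array they were -0.995 (adjusted p = 0.0029) and -0.67 (adjusted p = 0.071). With the hybridization control level as a covariate the E10.5 difference did not pass (-1.61, adjusted p = 0.077). The adipocyte markers read 6.16, 4.16 and 5.07 on the female, male and mixed young adult arrays and 5.28, 3.60 and 4.26 on the old adult ones, and their part in the Mmp3 values was not tested.

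Adamts2, the procollagen N-proteinase, rose early and then stayed within a narrower range. The main probe set read 4.51, 4.42 and 4.81 at E10.5, 5.62, 6.23 and 6.02 on the E11.5 arrays, 7.57, 7.53 and 7.47 at E19.5, and 7.64, 7.19 and 7.07 in young adults. E10.5 lay below every other stage, and E19.5 overlapped with young adults. At E10.5 it was 6.60-fold lower than in young adults (-2.72, SE 0.19, adjusted p = 3.3e-13) and 7.69-fold lower than at E19.5 (-2.94, adjusted p = 2.7e-13). The first daily step, from E10.5 to E11.5, was 1.38 (adjusted p = 0.00012), the only member probe set to pass the looser rule there, as 2.53% of all probe sets did. By E19.5 the difference from young adults was 0.22 with an interval from -0.18 to 0.62 (adjusted p = 0.43). The second probe set, 1435990_at, was 4.61-fold lower at E10.5 than at E19.5 (adjusted p = 2.9e-10) and, unlike the first, 2.16-fold higher at E19.5 than in young adults (1.11, adjusted p = 5.6e-05). Its difference between E10.5 and young adults was -1.09 (adjusted p = 2.6e-05), which was not called. The third, 1455720_at, reached no stage mean above 5 and did not follow the main one (r = -0.08 over 12 stage means). Its E10.5 level did not differ detectably from young adults (0.27, adjusted p = 0.32) or from E19.5 (-0.03, adjusted p = 0.91).

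Adamts5, a versicanase and aggrecanase needed for valve remodelling, had a stage mean of 6.25 at E12.5, its lowest of 4.81 at E15.5, and 6.29 by E19.5, under its young adult mean of 6.56. The main probe set read 5.14, 5.35 and 4.64 at E10.5, 6.24, 6.34 and 6.18 at E12.5, 4.96, 4.43 and 5.04 at E15.5, 6.50, 6.81 and 5.57 at E19.5, and 7.02, 6.41 and 6.26 in young adults. The E12.5 arrays lay above all E10.5 and E15.5 arrays. From E17.5 to E19.5 it rose by 1.05 (SE 0.26, adjusted p = 0.016), and 2 further probe sets did so by 0.85 (adjusted p = 0.022) and 0.92 (adjusted p = 0.0021). Without any 1 of the male E17.5, female E19.5 and male E19.5 arrays the first pair did not pass (adjusted p from 0.06 to 0.18), while the last did (at most 0.028). The second also failed without the mixed E17.5 array (adjusted p = 0.1). For the last, 1450658_at, the step from E18.5 to E19.5 alone was 1.01 (adjusted p = 0.0023), the only member probe set to pass there, as 1.33% of all did. At E10.5 the main probe set was 2.87-fold lower than in young adults (-1.52, adjusted p = 8.9e-06). At E19.5 its difference from young adults was -0.27 with an interval from -0.80 to 0.26 (adjusted p = 0.48). On 1456404_at, 1450658_at and 1456969_at the E10.5 differences were -1.04, -1.25 and -0.35 (adjusted p = 0.00017, 4.2e-07 and 0.043). At E19.5 they were 0.05, 0.14 and -0.05 (adjusted p = 0.89, 0.59 and 0.83). The last probe set reached no stage mean above 5, and its E10.5 adjusted p was up to 0.13 with 1 array left out.

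**Figure D2:**
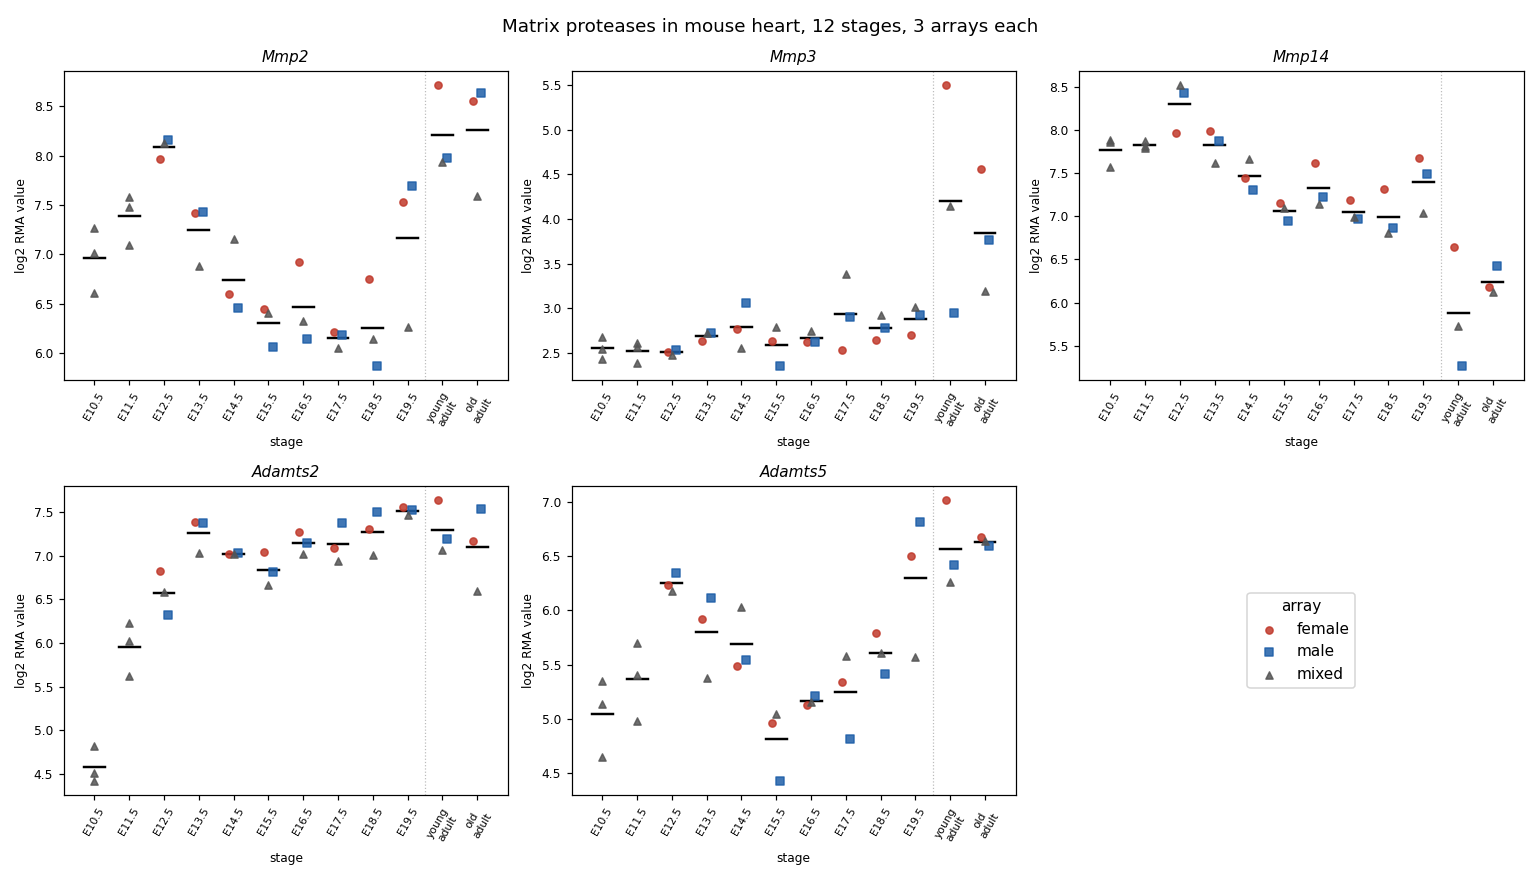
Log2 RMA value of the main probe set of Mmp2, Mmp3, Mmp14, Adamts2 and Adamts5 (y axis, own range per panel, not starting at 0) at 12 stages (x axis), with single arrays by sex label as points and means of 3 arrays as bars. Mmp14 falls below its embryonic range in adults, and the stage mean of Adamts2 goes from 4.58 at E10.5 to 7.27 at E13.5.

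The main probe sets of Timp1, Timp2, Timp3, Mmp2, Mmp14 and Adamts5 had a higher stage mean at E12.5 than at E11.5, and lower ones at E15.5 and E17.5. Relative to its own mean over the 10 embryonic stages, Mmp2 stood at 1.21 at E12.5 and at -0.73 at E17.5. Timp1 stood at 0.89 and -0.88, Mmp14 at 0.80 and -0.45, and Adamts5 at 0.72 and -0.28. The swings of Timp2 (0.29 and -0.33) and Timp3 (0.32 and -0.38) were smaller, and the stage means of these and of Adamts5 were above their E12.5 ones at E19.5 (0.34, 0.63 and 0.77). These genes were grouped after their values were seen. Between E12.5 and E19.5, 6 of the 10 main probe sets passed the looser rule, where 28.9% of all did. Those of Timp1 (0.75, adjusted p = 0.03), Mmp2 (0.93) and Mmp14 (0.90, adjusted p = 0.0025) were higher at E12.5, and those of Timp4, Adamts2 and Adamts9 were lower. Timp2, Timp3, Mmp3 and Adamts5 (-0.04, adjusted p = 0.91) did not pass. The immediate early genes, which respond to handling, averaged 9.27 at E12.5 and 6.73 to 8.49 at the other embryonic stages. The epicardium and mesothelium markers also had their highest stage mean at E12.5 (6.14). The part of either list in the peak was not tested.

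**Figure D3:**
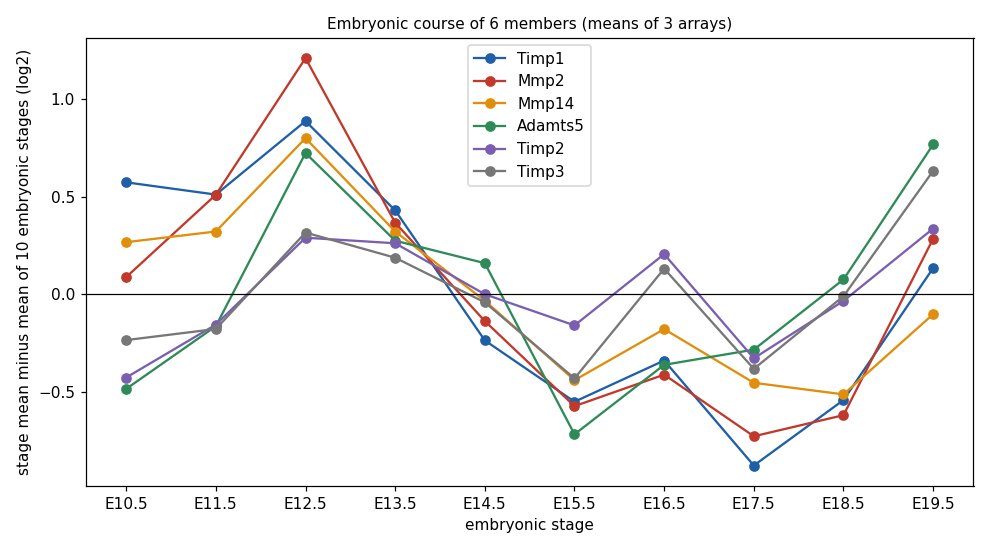
Stage mean of the main probe set minus its mean over the 10 embryonic stages (y axis, log2) against embryonic stage (x axis) for Timp1, Timp2, Timp3, Mmp2, Mmp14 and Adamts5, each point being the mean of 3 arrays. All lines are above 0 at E12.5 and below it at E15.5 and E17.5.

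Adamts9, a versican-cleaving protease made by several cardiac cell types, depended on the probe set read. The main one, 1431399_at, read 6.09, 5.95 and 6.67 at E10.5, 7.49, 7.23 and 7.14 at E19.5 and 5.76, 6.55 and 6.67 in young adults, so that E10.5 and young adults overlapped (-0.09, adjusted p = 0.78) and E19.5 was 1.95-fold higher (0.96, SE 0.26, adjusted p = 0.0057). Without the female young adult array that difference was 0.68 (adjusted p = 0.068). Probe set 1430352_at read 6.42, 6.32 and 6.34 at E10.5, 7.47, 7.15 and 6.65 at E19.5, 2.78, 4.08 and 2.44 in young adults and 4.37, 7.86 and 8.85 in old adults, in each case with the female array first and the mixed one last from E12.5 on.

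On 1430352_at, every embryonic array and every old adult array lay above the 3 young adult arrays. At E10.5 it was higher than in young adults by 3.26 on the log2 scale (SE 0.58, adjusted p = 1.8e-05), short of the limit on p, and at E19.5 by 3.996 (adjusted p = 2.4e-06), which was called. The young adult arrays lie at the low end of the scale, so no fold is given. Without the male young adult array the E19.5 difference was 4.49 and still called. Without any 1 of the other 5 of the 6 arrays the call was lost, with adjusted p up to 6.7e-05 and differences from 3.67 to 4.22. It was lost as well with the sex label as a block (adjusted p = 1.9e-05). The third probe set, 1437785_at, differed from young adults by 1.17 at E10.5 (adjusted p = 0.0045) and by 1.41 at E19.5 (adjusted p = 0.0022). With the hybridization control level as a covariate neither passed at E10.5 (2.23 for 1430352_at and 0.59 for 1437785_at, adjusted p = 0.16 and 0.6). Over the 12 stage means the other 2 probe sets correlated with the main one at r = 0.39 and 0.46. In all, 4 noncoding genes overlap Adamts9 in the RefSeq annotation, and which transcript each probe set reads was not tested.

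Between old and young adults no member was called by the study's limits in the fit used here, and 3 of all 45101 probe sets were (0.00665%). The paper differs on this point. Among the few genes it found to differ with age, it names Adamts9 as the one raised most in older hearts. Its text does not name the probe set, and why the calls differ was not tested. Under the looser rule 1 member probe set was higher and 1 lower, where 6.96% of all were called either way. Adamts9 1430352_at was higher in old adults by 3.93 on the log2 scale (SE 0.58, adjusted p = 0.00011), with 4.37 on the female, 7.86 on the male and 8.85 on the mixed array against 2.78, 4.08 and 2.44. Without the female old adult array the difference was 5.26 (adjusted p = 2.7e-10) and was called. In a fit of the 6 adult arrays alone the adjusted p was 0.14.

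The other Adamts9 probe sets were 0.75 and 0.90 higher in old adults (adjusted p = 0.079 and 0.11), and did pass the looser rule without the female old adult array (1.22, adjusted p = 0.0011, and 1.65, adjusted p = 9.3e-05). The lower probe set was Mmp14 1416572_at (-0.61, adjusted p = 0.038), a pass lost without the male young adult, male old adult or female old adult array (adjusted p = 0.27, 0.16 and 0.055). The main Mmp14 probe set differed by 0.36 with an interval from -0.09 to 0.82, and by 0.75 (adjusted p = 0.015) without the female young adult array. Timp1 was 0.77 higher in old adults (adjusted p = 0.07). Without the male array, which read 7.40, the Timp1 difference was 0.23 (adjusted p = 0.58), and without the female or the mixed one it was 1.00 and 1.06 (adjusted p = 0.026 and 0.021). The immediate early markers on the old adult female, male and mixed arrays averaged 6.86, 7.77 and 7.32 and the endothelial markers 7.47, 7.66 and 8.16, against means of 6.49 and 7.08 in young adults. Smooth muscle markers were lower, at 7.38 to 7.83 against 8.38 to 8.99. Their part in the Adamts9 and Timp1 values was not tested.

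**Figure D4:**
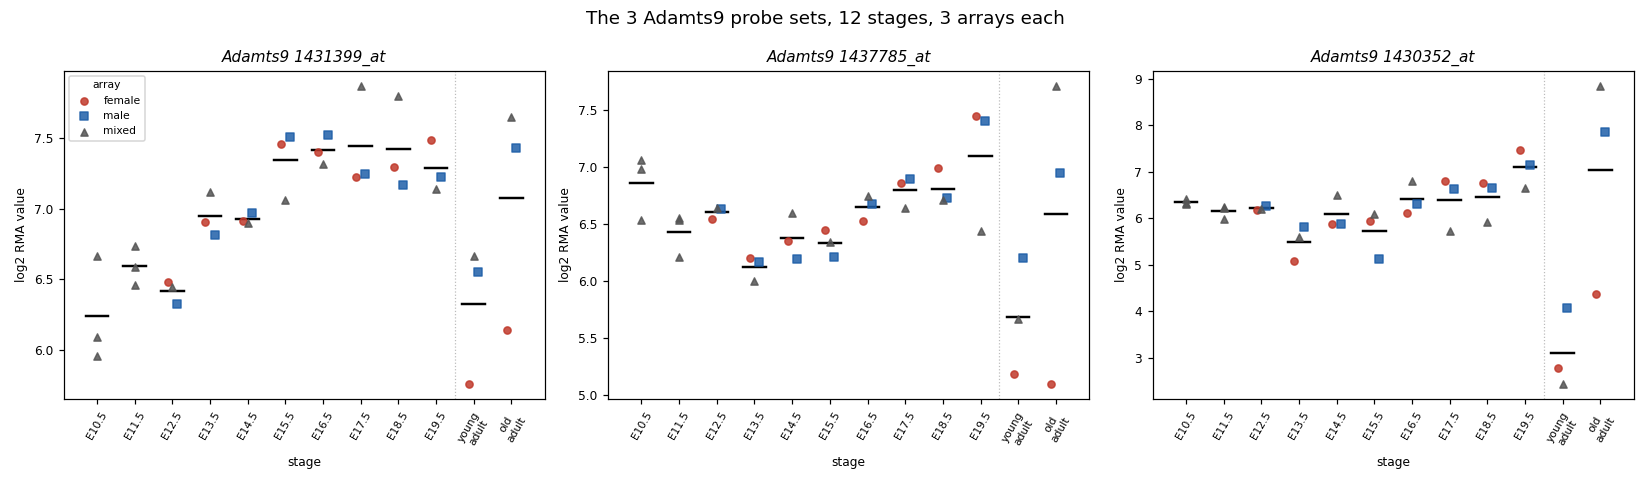
Log2 RMA value of the 3 Adamts9 probe sets (y axis, own range per panel, not starting at 0) at 12 stages (x axis), with single arrays by sex label as points and means of 3 arrays as bars. On 1430352_at the young adult arrays, at 2.44 to 4.08, lie under all others, and on all 3 probe sets the female array is the lowest of the old adult arrays.

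Counted over probe sets, the called differences were mainly towards higher adult levels. At E10.5, 7 of the 29 were called lower than in young adults and 0 higher, where 2.1% of all probe sets were called lower and 4.43% higher. The 7 were both of Timp4, 3 of Timp3, 1 of Timp2 and 1 of Adamts2. Under the looser rule 21 were lower and 4 higher, with 35.9% and 27.1% over all. The median difference of the 10 main probe sets was -1.57, and that of all probe sets was -0.19. At E19.5, 4 were lower (2 each of Timp3 and Timp4) and 1 higher (Adamts9 1430352_at), against 0.634% and 0.818% over all. The medians there were -0.63 for the main probe sets, -0.04 for all and 0.13 for all with a stage mean above 5. Between E10.5 and E19.5, 3 were lower at E10.5 (Timp4 and 2 of Adamts2) and 0 higher, against 0.698% and 1.48%. These comparisons share arrays: the first pair and the old adult comparison share the young adult arrays.

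**Figure D5:**
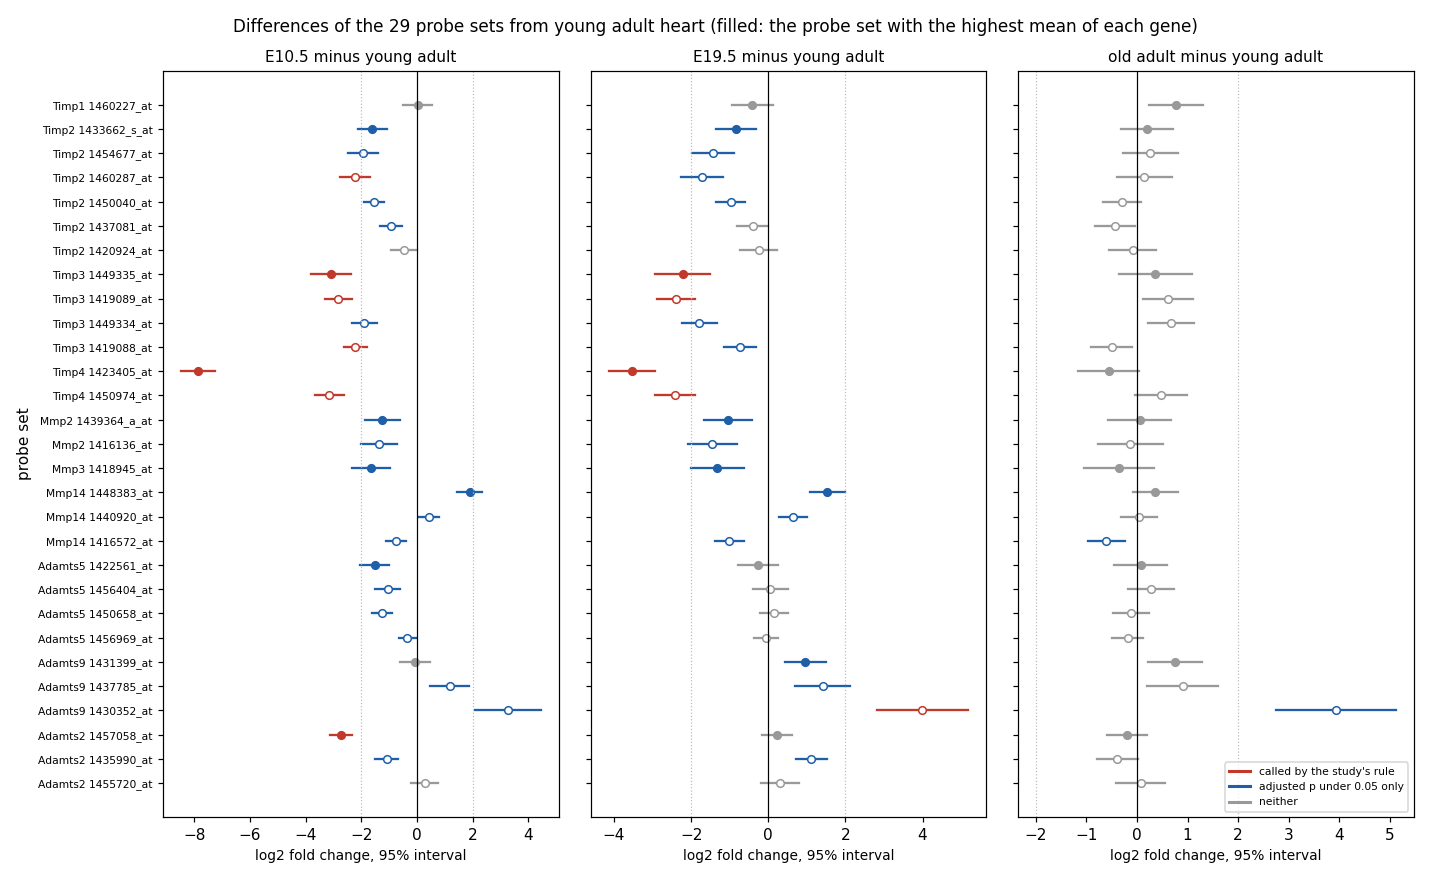
Log2 fold change with 95% interval (x axis) of the 29 probe sets (y axis) at E10.5, E19.5 and old adult, each minus young adult, from the fit of all 36 arrays. Filled points are the main probe set of a gene, colours give the rule passed, and dotted lines mark 2 in either direction. The TIMP intervals at E10.5 lie left of 0 except for Timp1 and 1 Timp2 probe set, and in the old adult panel 1 interval, of Adamts9, lies beyond 2.

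Other scalings moved these values. Centring each array on the median of probe sets with a mean above 5 shifted every E10.5 minus young adult difference by -0.53, every E19.5 one by -0.18 and every old adult one by -0.14. Under it Timp1 at E10.5 was -0.51 (adjusted p = 0.053), and the main probe sets of Timp2, Timp3, Timp4 and Mmp14 had the directions given above (Mmp14 1.37, adjusted p = 4e-07), while the Adamts9 one was -0.61 (adjusted p = 0.049), with 12 member probe sets called lower. With the hybridization control level as a covariate, the E10.5 differences of the main probe sets were larger for Timp3 (-5.27), Timp2 (-3.21) and Mmp2 (-2.85), smaller for Mmp14 (0.79), and 1.00 for Adamts9 (adjusted p = 0.13).

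No member passed a limit between male and female arrays. Over the 9 pairs from E13.5 to old adult, 0 of 29 probe sets passed the looser rule with limma, and 22 of all did (0.0488%), while 9 had an unadjusted p under 0.05, as did 7.8% of all. The smallest unadjusted p belonged to Mmp2 1416136_at, which was lower in males in 8 of 9 pairs (-0.37, SE 0.11, adjusted p = 0.48). The sex difference itself differed between adult and embryonic pairs for 4 of the 29 probe sets, the 3 of Adamts9 and that of Mmp3 (interaction term, limma adjusted p from 0.0032 to 0.016), where 0.548% of all probe sets passed.

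Other genes of the same system were counted from lists, against the shares over all probe sets of 4.43% called higher and 2.1% lower at E10.5 and 0.818% and 0.634% at E19.5. Of 13 other measured ADAMTS genes 1 was called at E10.5 against young adults, Adamts6, higher by 2.66 (adjusted p = 5.3e-11), and it was also the 1 called at E19.5 (2.62, adjusted p = 3.6e-10). Of 16 other MMPs, 5 of which reached a stage mean above 5, 0 were called at either stage, with 2 higher and 8 lower under the looser rule at E10.5 (27.1% and 35.9% over all) and 3 and 3 at E19.5 (15.5% and 13.6% over all). Of 7 ADAM sheddases, 2 were called higher at E10.5, Adam12 (2.06, adjusted p = 3.8e-09) and Adam19 (2.08, adjusted p = 1.6e-10). Of the 6 ADAMTS-like glycoproteins, which lack a protease domain, Adamtsl5 (-3.99, adjusted p = 3.3e-15) and Adamtsl4 (-2.16, adjusted p = 9.2e-11) were called lower.

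Among 13 other genes of protease control, 2 were called lower at both stages. They were Pcolce2, an enhancer of procollagen C-proteinase, at -4.36 (adjusted p = 1.8e-16) at E10.5 and -3.87 (adjusted p = 2.3e-14) at E19.5, and Serpinf1 at -2.18 (adjusted p = 2e-07) and -2.86 (adjusted p = 4.6e-09). Of 7 genes of cathepsins and their inhibitor, Ctss was called lower at E10.5 (-3.64, adjusted p = 3.8e-14) and Cst3, the cystatin, at E19.5 (-2.53, adjusted p = 3.2e-06). Ctss is also expressed by macrophages, and 5 of the 6 macrophage and leukocyte markers were called lower at E10.5 too. The part of these cells in the Ctss difference was not tested.

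The list of matrix substrates held 12 genes, the cross-linking enzyme gene Lox among them. Of these, 10 reached a stage mean above 5. At E10.5, 3 were higher than in young adults under the looser rule and 5 lower (27.1% and 35.9% over all probe sets). At E19.5, 8 were higher and 0 lower (15.5% and 13.6% over all). The versican gene Vcan, cut by Adamts5 and Adamts9, was 26.0-fold higher at E10.5 than in young adults (4.70, adjusted p = 1e-14), and also called higher were the link protein gene Hapln1 (5.69, adjusted p = 4.4e-19) and the fibronectin gene Fn1 (2.47, adjusted p = 4.3e-08). The 5 lower ones were not called. They were Col1a2 (-1.73, adjusted p = 4.9e-08), Eln (-1.65, adjusted p = 3.8e-05), Col4a1, Bcan and Ncan. At E19.5 the genes called higher were Col1a1 (3.33, adjusted p = 6.6e-14), Eln (3.28, adjusted p = 8.5e-10) and Lox (2.47, adjusted p = 4.2e-08), which encode a collagen chain, elastin and the enzyme that cross-links both. The medians of the list were -0.41 at E10.5 and 1.00 at E19.5. Between old and young adults 0 genes of these lists were called.

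The genes most like each member in course were found by Pearson r over the 12 stage means, among 7905 genes with a mean above 5 and a range above 1 (7906 for Mmp3). For Timp4 they were Dgat2 (r = 0.99) and Tuba4a (0.99), and for Timp3 Fxyd6 (0.99) and Use1 (0.99). For Timp2 they were Itm2b (0.97) and Lum (0.97), and for Timp1 Ctsl (0.98) and Skil (0.97). For Mmp2 they were Eva1b (0.98) and Frzb (0.96), for Mmp14 6720454L07Rik (0.97) and Igf2 (0.97), and for Mmp3 Slc36a2 (0.99) and Rxrg (0.98). For Adamts2 they were Nfix (0.97) and Col6a3 (0.97), for Adamts9 Spry4 (0.96) and Plekhg1 (0.96), and for Adamts5 Emp3 (0.89) and Prrx1 (0.88). These values describe courses over 12 points that share their arrays and carry no test.

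In the RefSeq annotation 3 TIMP genes lie within synapsin genes, Timp1 in Syn1, Timp3 in Syn3 and Timp4 in Syn2. Syn2 differed between E10.5 and young adults by -0.97 to -0.12 over its 6 probe sets, against -7.88 and -3.15 for Timp4, and Syn3 by -0.83 to -0.48 over 3 probe sets, against -3.09 to -1.89 for Timp3. Syn1 differed by -0.92 (adjusted p = 4.3e-05) where Timp1 differed by 0.02. The synapsin probe sets had no stage mean above 5, the highest being 4.90 for Syn2, 4.71 for Syn3 and 3.80 for Syn1. They could therefore not be called by the study's limits, and RMA compresses differences at such levels. This set was looked up after the values of the TIMPs were seen.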

How the data were processed

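RNA of whole mouse hearts at 12 stages was measured on Affymetrix mouse whole-genome arrays (Mouse430_2) after 3′ IVT labelling, 3 arrays per stage. The authors deposited log2 intensities made by robust multi-array averaging (background correction, quantile normalization and summary per probe set), and the submitters' processing notes name Affymetrix Expression Console, Partek 6.6 and RMA. Such values compress low intensities, and arrays give no read depth, so the number of arrays limits the precision. All 36 value columns were mapped to samples by name, with 0 left unused, and 6937 probe sets have no gene ID. Stage means were fitted with limma 3.58.1 in R 4.3.3 over all 45101 probe sets without a filter, and p-values were adjusted by Benjamini-Hochberg over all of them. In all 30 limma comparisons were made. Male and female arrays were compared with stage as a block. Arrays with the same sex label (female, male or mixed) deviated together between E17.5 and E19.5, with correlations of 0.46, 0.28 and 0.42, so the label was also used there as a block. Labels do not give litters, so p-values measure the spread between these samples. Reported genes were all members, up to 4 called genes of each pathway list by size of change, and the 2 genes most similar in course. Members and lists were chosen with earlier results of these data known. Scripts were tested on simulated data. Plots used matplotlib 3.10.9.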

Additional observations from a re-analysis of the deposited data

Results flagged for a closer look

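The male minus female difference of Adamts9 and Mmp3 differed between the 2 adult and the 7 embryonic pairs of arrays, tested by an interaction term in limma with stage as a block, where 0.548% of all probe sets passed an adjusted p of 0.05. For Adamts9 the adult difference exceeded the embryonic one by 1.08 on 1431399_at (adjusted p = 0.015), by 1.52 on 1437785_at (adjusted p = 0.0032) and by 2.46 on 1430352_at (adjusted p = 0.012). The male array was higher than the female one in both adult pairs on all 3, by 0.80 and 1.29, by 1.02 and 1.85, and by 1.30 and 3.49 in young and old adults. For Mmp3 the adult difference lay below the embryonic one by an interaction of -1.80 (adjusted p = 0.016), the female array being the higher by 2.56 in young adults and 0.79 in old adults.

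Each adult pair is 1 female and 1 male array. Without the old adult pair the Adamts9 interactions were 0.83 (adjusted p = 0.051), 1.10 and 1.37 (adjusted p = 0.048), and that of Mmp3 was -2.68 (adjusted p = 2.2e-05). Without the young adult pair they were 1.32, 1.93 and 3.55, and -0.91 for Mmp3 (adjusted p = 0.045). The adipocyte markers were higher on the female array of both adult pairs (6.16 and 5.28 against 4.16 and 3.60), as were the fibroblast markers (9.14 and 9.03 against 8.56 and 8.78), and their part in these differences was not tested.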

How the results depend on the processing

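Of 1662 fold changes of members recomputed under alternatives, 1608 stayed on their side of the study's limits, 29 were no longer called, 22 became called and 3 reversed with an adjusted p under 0.05 in either setting. The reversed ones were Mmp14 1440920_at at E10.5 against young adult under median centring (-0.10) and Timp2 1437081_at with the hybridization control level as a covariate, at E10.5 against young adult (0.10) and against E19.5 (0.046). In all, 87 fold changes took the opposite sign, and for the other 84 the adjusted p was never under 0.05. At E10.5 against young adult the 7 probe sets called lower became 4 with only the 6 arrays of both stages, 12 under median centring, 13 at a log2 limit of 1 and 21 at an adjusted p under 0.05, and the 0 called higher became 1 and 4 under the last pair of settings. At E19.5 the 1 called higher became 0 with only the 6 arrays, with an intensity trend, with the hybridization control level, with the sex label as a replicate block and without the mixed arrays of E17.5 to E19.5 (chosen after seeing the data), 2 at a log2 limit of 1 and 6 at an adjusted p under 0.05. The 4 called lower there became 1 with only the 6 arrays, 8 with the hybridization control level and 14 at an adjusted p under 0.05. At E10.5 against E19.5 the 3 called lower became 5 at a log2 limit of 1 and 13 at an adjusted p under 0.05. Between old and young adults 1 was higher and 1 lower at an adjusted p under 0.05. The causes of these changes were not tested.

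With any 1 array of the stages compared left out, 0 to 1 were called higher and 6 to 9 lower at E10.5, 0 to 1 higher and 3 to 4 lower at E19.5, 0 higher and 3 lower at E10.5 against E19.5, and 0 to 1 higher and 0 lower in old adults. The 1 at E10.5 was Mmp14 without the female young adult array, and the 1 in old adults was Adamts9 1430352_at without the female old adult array. The late embryonic comparisons were recomputed with settings chosen after seeing the data. Under the looser rule the 1 member passing from E16.5 to E17.5 became 0 on the E16.5 to E19.5 arrays alone, with or without the sex label as a replicate block, and 0 to 1 with 1 array left out. The 7 between E17.5 and E19.5 became 12 with the sex label as a replicate block on the E17.5 to E19.5 arrays, 0 on these arrays without it, and 2 to 9 with 1 array left out. The 1 from E18.5 to E19.5 became 0 on these arrays with no block, 3 without the mixed arrays, and 1 to 4 with 1 array left out. The main fits of stage did not pair arrays that share a number or sex label, and fits with such a label as a block were alternatives. For the other pairs of stages checked, the correlation of their deviations was 0.25, -0.27 and 0.17 for E10.5 and E11.5. It was -0.52 to 0.16 for E16.5 and E17.5, 0.12 to 0.62 for E17.5 and E18.5, and 0.03 to 0.58 for E18.5 and E19.5. For E19.5 and young adult it was 0.02 to 0.21, and for young and old adult 0.0059 to 0.096. With the sex label as a replicate block, the E19.5 differences of Adamts9 1430352_at and Timp3 1449335_at were no longer called (adjusted p = 1.9e-05 and 3.2e-05). Low signal limits Mmp3 and the other probe sets that reached no stage mean above 5.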
